A study of Mus musculus with 7 samples.

Results

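The clustered protocadherin genes were examined in chromatin accessibility data from muscle stem cells (MuSCs), the quiescent cells that lie on muscle fibers and rebuild them after injury. The members were all 58 mm10 RefSeq genes on chromosome 18 whose symbol starts with Pcdha, Pcdhb or Pcdhg. They were set beside the 19662 protein-coding genes for which a transcription start site (TSS) could be set, a total that holds all members except 1. They form 3 adjacent clusters on the plus strand, Pcdha with 14 members (36930285 to 37188897), Pcdhb with 22 members (37264998 to 37521419) and Pcdhg with 22 members (37661775 to 37841873). The exception is Pcdhgb8, annotated as a transcribed pseudogene, while the others are protein-coding. The rule for a member uses position and symbol and no measured value.

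Clustered protocadherins are cell surface proteins of the cadherin family, best known from neurons, where they give each cell an adhesive identity and let its branches recognise each other. In the Pcdha and Pcdhg clusters each gene is a large first exon with a promoter of its own, spliced to constant exons at the end of the cluster, whereas Pcdhb genes consist of a single large exon. Single neurons choose a few of the variable first exons, a choice linked to CTCF, cohesin and DNA methylation, while the C-type first exons at the ends of Pcdha and Pcdhg are under separate control.

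In ATAC-seq, the Tn5 transposase inserts adapters into open DNA, and sequenced tags therefore pile up where chromatin is accessible. Each of the 7 libraries held 5000 MuSCs sorted from the hindlimbs of young male C57BL/6 mice by ITGA7 and a Hoechst stain for DNA, with cells positive for CD31, CD45, CD11b or SCA1 left out. There were 4 libraries from Nedd4L-cKO mice (Nedd4L fl/fl; Pax7 cre/+), in which an exon of the catalytic domain of this E3 ubiquitin ligase is removed in Pax7-expressing cells while the gene is still transcribed. The other 3 libraries were from WT mice, whose Cre and floxed alleles are not further stated in the sources used here. The comparison asked whether loss of Nedd4L changed accessibility in freshly isolated MuSCs.

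The authors called broad peaks in each library on its own, at a q-value of 0.1, with 14.4 to 20.1 M (mega) tags kept and 69302 to 79158 peaks per library. WT replicate 3 was sequenced on lane 2 and the other libraries on lane 1. The peak lists cannot show an exon deletion, so the genotype labels were not checked here. Of 8 MuSC markers, all had a promoter peak in all 7 libraries, with median pileup percentiles from 71.8 (Calcr) to 99.0 (Sdc4). None of 5 immune markers had a peak in any library, while 2 of 4 endothelial markers (Tek and Kdr, medians 80.9 and 50.7) and 2 of 4 neuronal markers (Snap25 and Syt1, 23.3 and 11.2) had one in all 7. No fibro-adipogenic marker of 3 did (Dcn in 5 libraries), and the endothelial Pecam1 and Cdh5 and the neuronal Rbfox3 and Stmn2 had none. The part of other cells in the protocadherin peaks was not tested.

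A first exon was taken as accessible in a library when a peak overlapped its TSS ± 1 kb. By this measure 9 of the 58 members were accessible in all 7 libraries, 21 in 1 to 6 libraries and 28 in none, that is 15.5%, 36.2% and 48.3%. Among all 19662 protein-coding promoters 63.6% had a peak in all 7 libraries and 30.7% had none. Of the 53 variable members only 5 were accessible in every library, against 4 of the 5 C-type members. Of the 25 variable members that were accessible at all, 20 (80.0%) were accessible in some libraries but not in others, a state found in 8.12% of the other protein-coding promoters with a peak. Those promoters had much stronger peaks, with a median pileup percentile of 85.9 against 12.3 at the variable exons. Over all 95163 merged regions, 56.0% were called in every library and the rest in only some. The part of peak strength in the partial calls was not tested. Members are not replicates and share sequence and neighbours, so these shares are given without a test. Because the cells were sequenced in bulk, a weak peak from all cells and a strong peak from few cells cannot be told apart.

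**Figure D1:**
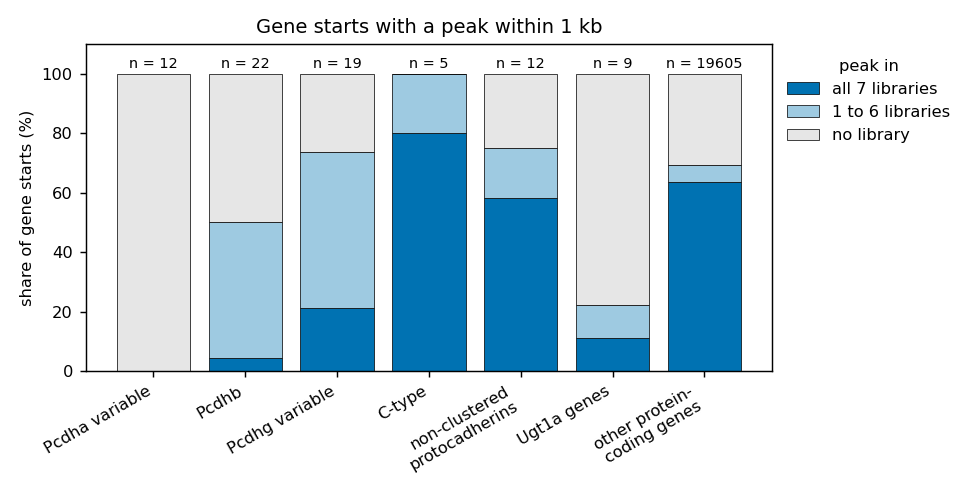
Share of gene starts (%, vertical axis) with a peak within 1 kb in all 7 libraries, in 1 to 6 libraries or in no library, for the groups of members, for the 12 non-clustered protocadherins, for the 9 Ugt1a genes and for the other 19605 protein-coding genes. All 12 Pcdha variable exons fall in the share with no peak, and the Pcdhb and Pcdhg variable exons hold large shares called in only some libraries.

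The 3 clusters differed in their pattern. None of the 12 Pcdha variable first exons (Pcdha1 to Pcdha12) had a peak in any library, whereas both C-type exons of the cluster, Pcdhac1 and Pcdhac2, had one in all 7. In Pcdhb, 1 member was accessible in every library (Pcdhb12), 10 in some and 11 in none. In Pcdhg, 4 of the 19 variable members (Pcdhgb1, Pcdhga7, Pcdhgb6 and Pcdhgb8) were accessible in every library, 10 in some and 5 in none. Within Pcdhg, exons of the b type had a peak in at least 1 library in all but Pcdhgb2, 6 of 7, and exons of the a type in 8 of 12.

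**Figure D2:**
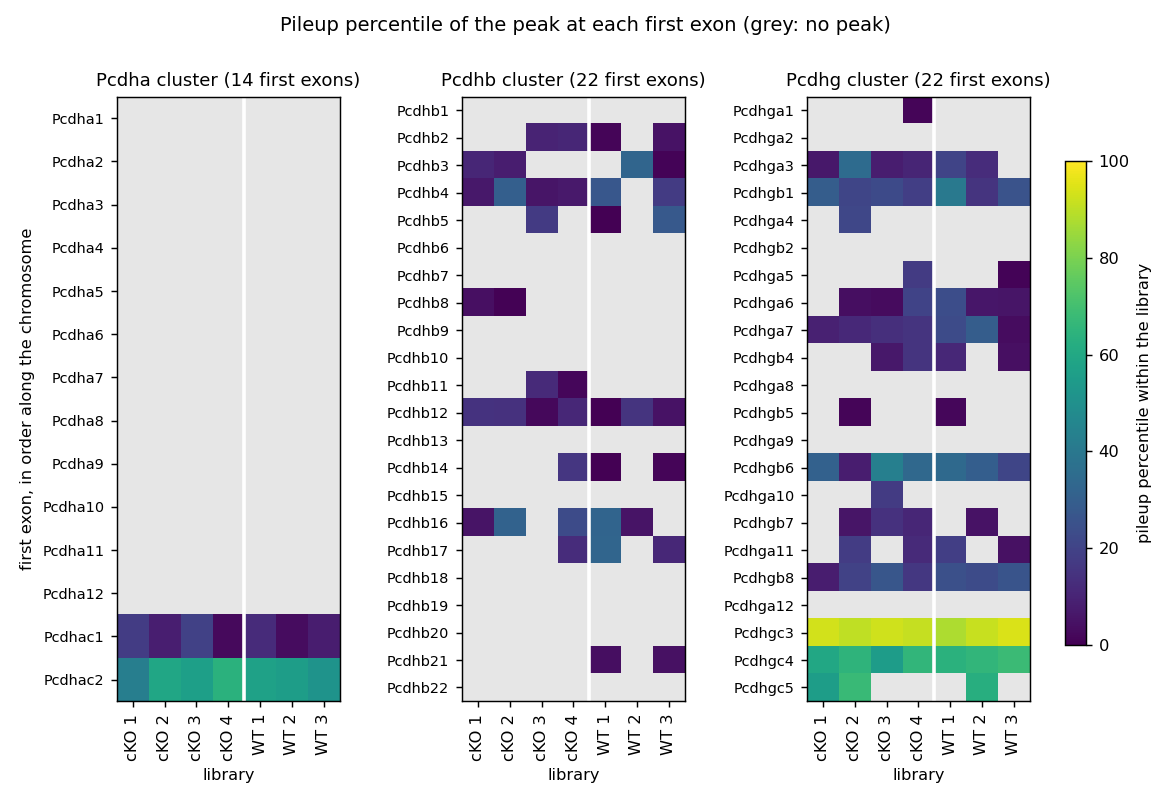
Pileup percentile of the peak at each of the 58 first exons (rows, in order along the chromosome) in each library (columns, 4 Nedd4L-cKO left of the white line and 3 WT right of it), with grey for no peak. The Pcdha variable exons are grey in every library, Pcdhgc3 is the brightest row, at 87.7 to 94.4, and calls at the Pcdhb and Pcdhg variable exons are scattered over both genotypes.

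To compare the height of peaks between libraries of unequal depth, the pileup (tag coverage over the peak) was ranked within its library, from 0 for the lowest peak to 100 for the highest. The 100 peaks at variable first exons lay between 0.366 and 43.3, with a median of 12.3, so by pileup all of them were in the lower part of their library's list. The 31 peaks at C-type exons had a median of 60.1, and peaks at the other protein-coding promoters had a median of 85.9. A q-value at least as strict as a -log10 of 5 was reached by 3.00% of the peaks at variable exons, 45.2% of those at C-type exons and 86.7% of those at other promoters. Of the 131 first-exon peaks, 46 (35.1%) had a -log10 q under 2, and the weakest had 1.10, just inside the calling threshold. An exon without a peak was thus not detectably accessible at this depth, which does not show that it was closed.

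Of all members Pcdhgc3 (TSS at 37806410), a C-type isoform of the gamma cluster, stood highest in pileup, with percentiles of 93.0, 90.3, 92.9 and 91.1 in Nedd4L-cKO replicates 1 to 4 and of 87.7, 91.4 and 94.4 in WT replicates 1 to 3. It was in the upper part of the list in every library, somewhat above the median of 85.9 for peaks at other protein-coding promoters. The genotypes overlapped. Its pileup of 40.03 to 49.82 was 3.14 to 4.95 times that of the highest variable exon in the same library. It was also the single member that kept a -log10 q of at least 5 in all 7 libraries, followed by Pcdhac2 with 6 libraries, Pcdhgb6 with 2, and Pcdhgb1 and Pcdhgc4 with 1 each.

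Pcdhgc4 (37815079), whose isoform is required for the survival of many neurons, had percentiles of 60.1, 65.2, 55.4 and 65.6 in Nedd4L-cKO and of 64.0, 66.0 and 68.3 in WT. All 7 values lay in the middle of the range and the groups overlapped. Pcdhgc5 (37819546) was called in Nedd4L-cKO replicate 1 (55.5), Nedd4L-cKO replicate 2 (67.9) and WT replicate 2 (62.7), and in no other library. Its pileup was thus close to that of Pcdhgc4 where it was called.

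In the alpha cluster, Pcdhac2 (37143678), the isoform by which serotonergic axons space themselves, had percentiles of 42.9, 59.0, 56.5 and 63.8 in Nedd4L-cKO and of 57.3, 55.7 and 51.4 in WT. Pcdhac1 (37090136) was lower, at 17.7, 8.34, 19.2 and 2.57 in Nedd4L-cKO and at 12.4, 3.42 and 7.97 in WT. Pcdhac2 lay above Pcdhac1 in every library, and for both exons the genotypes overlapped. By its median of 8.34, Pcdhac1 resembled the variable exons rather than the other C-type exons.

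The height of the first-exon peaks depended on the scale. The fold enrichment deposited for each peak divides the pileup by a background that can be as local as 10000 bp, and by its within-library percentile Pcdhgc3 had a median of 45.6, Pcdhgc4 of 19.9 and Pcdhgc5 of 1.48. On that scale Pcdhac2 was higher than these, with a median of 69.8, and Pcdhgb6 was at 68.9. By group, the median fold percentile was 32.0 for peaks at variable exons, 37.2 for those at C-type exons and 78.0 for those at other promoters. Variable and C-type exons thus lay much closer together than by pileup. Single variable peaks ranked high, such as Pcdhgb6 at 85.7 in Nedd4L-cKO replicate 3. By construction, a high pileup with a low fold, as at Pcdhgc4 and Pcdhgc5, means a high local background. The source of that background was not tested.

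Among the variable exons of Pcdhg, Pcdhgb6 (37742094) had percentiles of 31.2, 8.05, 43.3 and 33.7 in Nedd4L-cKO and of 34.3, 29.97 and 20.9 in WT, with a median of 31.2, and Nedd4L-cKO replicates 3 and 2 gave the highest and the lowest value. Pcdhgb1 (37680272) had 29.4, 21.0, 22.4 and 18.5 against 40.5, 14.9 and 25.5. Both ranges of WT and Nedd4L-cKO overlapped. The pseudogene Pcdhgb8 (37761801) had 8.16, 19.7, 26.8 and 16.4 in Nedd4L-cKO against 24.5, 22.9 and 25.9 in WT, so that 3 of the 4 Nedd4L-cKO libraries lay below all WT libraries. Pcdhga7 (37714834) had 9.01, 11.6, 13.6 and 15.2 against 22.8, 29.5 and 3.24, and here WT held both the highest and the lowest value.

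Pcdhga3 and Pcdhga6 each missed a single library. Pcdhga3 (37674335) had percentiles of 6.33, 35.04, 7.85 and 10.2 in Nedd4L-cKO and of 20.3 and 12.7 in WT replicates 1 and 2, with no peak in WT replicate 3. Pcdhga6 (37707101) had no peak in Nedd4L-cKO replicate 1, 3.52, 3.02 and 20.0 in the other Nedd4L-cKO libraries and 23.8, 5.86 and 5.68 in WT. In both, values of the genotypes overlapped. Pcdhgb4, Pcdhgb7 and Pcdhga11 were called in 4 libraries, Pcdhga5 and Pcdhgb5 in 2 and Pcdhga1, Pcdhga4 and Pcdhga10 in 1. Pcdhga2, Pcdhgb2, Pcdhga8, Pcdhga9 and Pcdhga12 were called in none.

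In Pcdhb, Pcdhb12 (37435621) was the single exon with a peak in all 7 libraries, at percentiles of 14.6, 14.1, 2.23 and 11.2 in Nedd4L-cKO and of 0.366, 15.1 and 4.96 in WT. WT replicate 1 and WT replicate 2 gave the extremes, so the genotypes overlapped. Pcdhb4 (37307455) was called in 6 libraries, with 6.42, 30.1, 5.64 and 6.91 in Nedd4L-cKO and 27.3 and 17.6 in WT replicates 1 and 3. Pcdhb16 (37477768) was called in 5, with 5.46, 31.4 and 22.8 in Nedd4L-cKO replicates 1, 2 and 4 and 32.4 and 5.42 in WT replicates 1 and 2. Peaks of these exons in the same library reached quite different ranks, and no library was the highest throughout. Pcdhb2 and Pcdhb3 were called in 4 libraries, Pcdhb5, Pcdhb14 and Pcdhb17 in 3, and Pcdhb8, Pcdhb11 and Pcdhb21 in 2. Pcdhb1, Pcdhb6, Pcdhb7, Pcdhb9, Pcdhb10, Pcdhb13, Pcdhb15, Pcdhb18, Pcdhb19, Pcdhb20 and Pcdhb22 were called in none.

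Peaks were also followed across the whole of each cluster. Merging overlapping peaks of the 7 libraries gave 35 regions in the clusters, 30 at first exons and 5 elsewhere, and 14 of the 35 (40%) were called in every library, against 56.0% of all 95163 merged regions. The 11 regions of Pcdhb all lay at first exons. The exonic or intronic position of the other regions was not set, because gene spans alone were used on mm10.

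**Figure D3:**
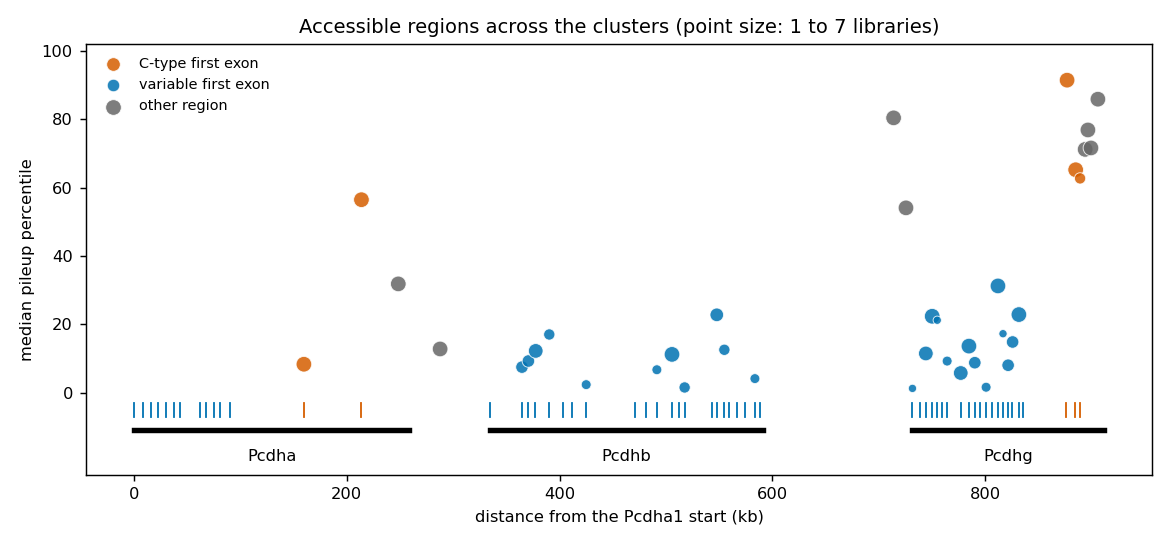
Accessible regions by distance from the Pcdha1 start (kb, horizontal axis) and median pileup percentile over the libraries that called them (vertical axis), with point size for the number of libraries. Ticks below mark the 58 gene starts and bars the 3 clusters. The Pcdha variable exons have no point above them, and the highest points inside the clusters lie at the far end of Pcdhg.

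In Pcdha, the other region (37177979 to 37179349) had its middle 34986 bp past the Pcdhac2 start and began 10918 bp before the end of the cluster. Its percentiles were 37.9, 34.5, 31.8 and 30.3 in Nedd4L-cKO and 47.2, 26.1 and 13.1 in WT, so WT held both extremes. Upstream of Pcdhac1 no region was called for 286.4 kb (36803039 to 37089414), a stretch that holds all 12 Pcdha variable exons. Of the 95142 gaps between neighbouring regions, 1.09% were as long or longer, and the median gap was 8.0 kb.

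In Pcdhg, 4 other regions followed one another between the Pcdhgc5 start and the end of the cluster, the stretch that holds the constant exons. The last of them (37835169 to 37837225), 16651 bp past the Pcdhgc5 start, was the highest, with percentiles of 86.6, 89.2, 83.02 and 83.9 in Nedd4L-cKO and 83.5, 86.1 and 85.9 in WT. The regions at 37823743 to 37824602, 37825543 to 37828077 and 37829394 to 37829939 had medians of 71.2, 76.9 and 71.6. The last of these 3 lies at the start of the predicted gene Gm29994. All 4 were called in all 7 libraries and stood higher in pileup than any variable exon, while their median fold enrichment of 2.256 to 3.60 was below the 4.15 of the region in Pcdha. Their median fold percentiles, in order along the chromosome, were 1.91, 5.09, 12.5 and 47.8. Of the variable exons called in every library, Pcdhgb1 (51.3), Pcdhgb6 (68.9) and Pcdhgb8 (56.7) stood above all of these. Pcdhga7 (35.5) and Pcdhb12 (29.3) stood above all but the last.

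Between the clusters 3 regions were called, each in all 7 libraries. One lay 28535 bp past the end of Pcdha (37217432 to 37218510), at percentiles of 8.23 to 23.8. A second lay at the promoter of Taf7 (37643388 to 37644975), which codes for a subunit of the general transcription factor TFIID, at 77.3 to 83.02. The third had its middle at -5962 bp from the Pcdhga1 start (37655233 to 37656394), at 48.9 to 59.5, with a median fold enrichment of 6.10 that was above that of any region in the clusters called in all 7 libraries. Slc25a2, a mitochondrial carrier gene next to Taf7, had no peak. Outside the clusters, the nearest protein-coding genes, Zmat2 before Pcdha and Diaph1 past Pcdhg, had promoter peaks in all 7 libraries, with medians of 73.6 and 97.1. These genes flank the clusters as a whole.

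The number of first exons with a peak was 15, 20, 18 and 22 in Nedd4L-cKO replicates 1 to 4 and 21, 15 and 20 in WT replicates 1 to 3. The means were 18.8 ± 2.99 (SD, n = 4) and 18.7 ± 3.21 (SD, n = 3), a difference far below the spread between libraries. Within lane 1 the difference was 0.75 exons. The library with the most tags kept, Nedd4L-cKO replicate 4 with 20.1 M, had the most accessible exons, yet WT replicate 3 with the fewest, 14.4 M, had 20.

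**Figure D4:**
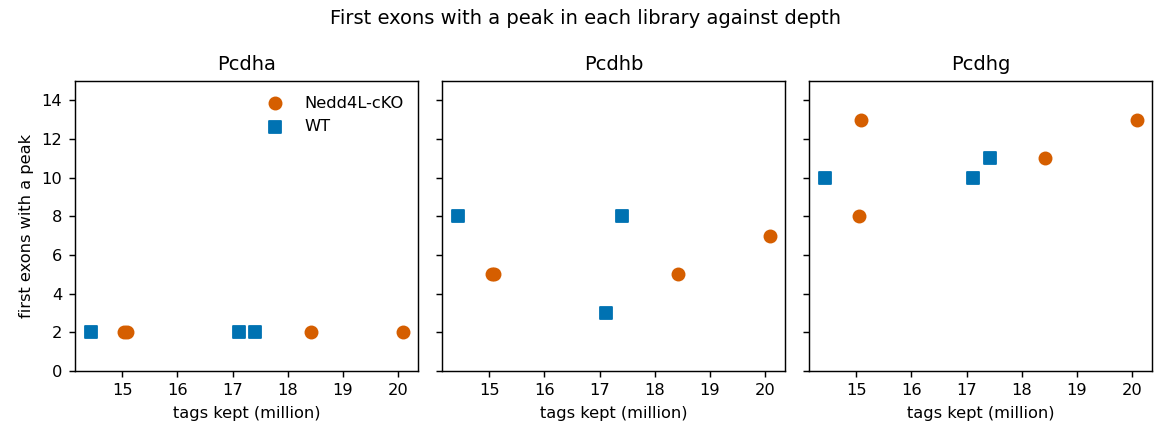
First exons with a peak (vertical axis) in each cluster against the tags kept in the library (M, horizontal axis), with circles for Nedd4L-cKO and squares for WT. Pcdha stays at 2 in every library, and in Pcdhb and Pcdhg the genotypes overlap.

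By cluster, Pcdha held 3 peaks in every library, 2 at the C-type exons and 1 elsewhere. Pcdhb held 5, 5, 5 and 7 peaks in Nedd4L-cKO and 8, 3 and 8 in WT, or 5.50 ± 1.00 (SD, n = 4) against 6.33 ± 2.89 (SD, n = 3). Pcdhg held 13, 17, 15 and 17 against 15, 14 and 15, or 15.5 ± 1.91 (SD, n = 4) against 14.7 ± 0.577 (SD, n = 3). In no cluster did the genotypes separate. Within lane 1 the differences in peaks were 0, 0 and 1.00 for Pcdha, Pcdhb and Pcdhg.

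Covered length and height overlapped as well. Peaks covered 3.05 ± 0.171 kb of Pcdha in Nedd4L-cKO (SD, n = 4) and 2.95 ± 0.154 kb in WT (SD, n = 3), 2.39 ± 0.448 and 2.68 ± 1.22 kb of Pcdhb, and 13.1 ± 1.96 and 11.9 ± 1.13 kb of Pcdhg. The median pileup percentile of the peaks was 33.6 ± 3.31 in Nedd4L-cKO and 28.8 ± 17.2 in WT for Pcdha, 10.4 ± 3.18 and 7.52 ± 6.67 for Pcdhb, and 31.7 ± 19.3 and 35.5 ± 10.3 for Pcdhg. Each of these differences was smaller than the larger SD of its pair. Within lane 1 the differences in median percentile were -3.05, 1.64 and -8.65 for Pcdha, Pcdhb and Pcdhg, so that of Pcdha turned its sign, and the differences in covered length were 0.184, 0.313 and 0.564 kb, where that of Pcdhb turned its sign. Pcdhb had the lowest percentiles of the clusters in both genotypes.

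Shifts at single regions were tested with limma on ranks of pileup, converted to normal scores so that a shift of 1 is 1 SD of the ranks, over the 53245 regions called in all 7 libraries. With Benjamini-Hochberg adjustment none of these regions passed 0.05 (0%), and 1445 (2.71%) had an unadjusted p under 0.05. Of the 14 regions in the clusters none had an unadjusted p under 0.05. Of these, 8 were higher and 6 lower in Nedd4L-cKO, with shifts from -0.35 to 0.46. The study's legends give 1 mouse per library, so the p-values measure the spread between mice.

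The lowest p was at Pcdhgb8, with a shift of -0.35 (SE 0.221, limma unadjusted p = 0.151, adjusted p = 1.00). The lowest p on the higher side in Pcdhg was at the region from 37825543, with 0.12 (SE 0.0879, limma unadjusted p = 0.223, adjusted p = 1.00). In Pcdhb the single tested region, Pcdhb12, had a shift of 0.46 (SE 0.421, limma unadjusted p = 0.308, adjusted p = 1.00), and in Pcdha, where all 3 shifts were positive, the region from 37177979 had 0.23 (SE 0.302, limma unadjusted p = 0.471, adjusted p = 1.00). At the high C-type exons the shift was 0.02 (SE 0.132) for Pcdhgc3 and -0.14 (SE 0.0983) for Pcdhgc4. Within lane 1 none of 15 regions passed adjustment either, and Pcdhga7 had the lowest p there, with a shift of -0.68 (SE 0.138, limma unadjusted p = 0.00206, adjusted p = 1.00).

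Regions that were not called everywhere were compared by calls. Of all 95163 merged regions, 0.0694% had a peak in each Nedd4L-cKO library but lacked one in every WT library, and 0.0820% showed the reverse. None of the 35 regions in the clusters was of either kind. Pcdhb21, called in 2 WT libraries and in no Nedd4L-cKO library, came nearest and met the condition only when WT replicate 2 was left out.

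Sequence at the gene starts was read on GRCm39, in 500 bp on each side of the starts annotated there, for all 58 members. The ratio of observed to expected CpG dinucleotides, which is high in CpG islands, had a median of 0.685 at the 12 Pcdha variable exons (0.579 to 0.768), 0.598 at the Pcdhg variable exons, 0.379 at the Pcdhb exons and 0.564 at the C-type exons. Other protein-coding promoters had a median of 0.690 where they were accessible in all 7 libraries and of 0.204 where they had no peak. The Pcdha variable exons were thus close to accessible promoters in this ratio, but not in other measures. They held a median of 33.5 CpG dinucleotides against 56 at the accessible promoters, and their GC content of 44.9% was below both the 57.3% of accessible promoters and the 46.9% of promoters with no peak. Of the 9250 other promoters at or above the lowest of the 12 ratios, 91.2% had a peak in all 7 libraries and 5.74% had none. Within Pcdhb and Pcdhg, exons with a peak had higher medians than exons without, 0.412 against 0.312 in Pcdhb and 0.638 against 0.507 in Pcdhg, but the ranges overlapped widely. In Pcdhb the most often called exons were low (Pcdhb12 0.300, Pcdhb4 0.355 and Pcdhb16 0.219), and the highest ratio was at Pcdhb1 (0.520), which had no peak.

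**Figure D5:**
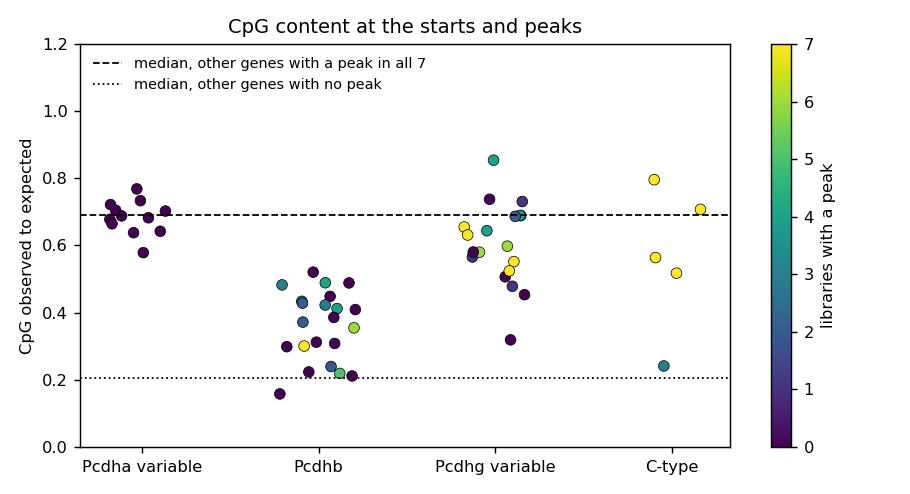
Ratio of observed to expected CpG (vertical axis) at the start of each member, by group, with colour for the number of libraries with a peak. Dashed and dotted lines are the medians of other protein-coding promoters with a peak in all 7 libraries and with none. The Pcdha variable exons lie around the dashed line with no peak in any library.

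Similarity between paralogs can lower the number of reads that map uniquely. When windows of 151 bp from the starts were aligned back to chromosome 18, a median of 91.6% at the Pcdha variable exons had a mapping quality above 30, with a lowest value of 80.5%. At the C-type exons all windows did. The medians at Pcdhb and Pcdhg variable exons were 100%, with lowest values of 89.7% and 89.2%. Reads from the remaining windows could come from several members, and their part in the lack of peaks was not tested.

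Peaks that were called at first exons lay mostly just downstream of the start. The middle of the peak was downstream for 24 of 30 members (80.0%), at a median of 120 bp, against 72.1% and 154 bp for the other protein-coding promoters with a peak. The peaks were short, with a median of 444 bp at variable exons and 1280 bp at C-type exons against 1306 bp at other promoters.

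Protocadherins outside the clusters have ordinary promoters of their own. Of 12 of them, 7 were accessible in all 7 libraries, with medians from 31.1 (Pcdh8) to 96.9 (Pcdh7), and Pcdh18 and Pcdh17 were at 87.0 and 86.8. Pcdh11x was called in 6 libraries and Pcdh12 in 2, while Pcdh9, Pcdh15 and Pcdh20 had no peak at their outermost start. The count of 7 of 12 is near the share of all promoters. The Ugt1a genes, another array of first exons spliced to shared exons, had 1 of 9 accessible in all 7 libraries, 1 in some and 7 in none.

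Among 12 regulators linked to the choice of protocadherin promoters, 9 were accessible in all 7 libraries, against 63.6% of all promoters, so the count says little about these genes. The gene of the insulator protein CTCF had a median percentile of 87.7, that of the cohesin subunit Smc3 95.0, that of the cohesin release factor Wapl 97.3 and that of the X inactivation and cluster repressor Smchd1 92.3. Stag1, Nipbl and Rad21 had no peak at the outermost start of their spans, which need not be the one in use. Of the genes for partners of protocadherins, the kinases Ptk2 and Ptk2b, the receptor Ret and the protease Adam10 were accessible in all 7 libraries, from 50.2 for Ptk2b to 97.7 for Adam10.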

How the data were processed

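ATAC-seq libraries of Nedd4L-cKO (n = 4) and WT (n = 3) MuSCs were grouped and numbered by their labels. Per the methods and the submitters' processing notes, the authors trimmed reads with Trimmomatic 0.39, aligned pairs to mm10 with BWA 0.7.17, kept alignments of high mapping quality with SAMtools and removed duplicates with Picard 2.26.3. Per the file headers, MACS2 2.2.7.1 then called broad peaks per library without a control, with a tag shift of -100 bp, an extension of 200 bp and a q-value of 0.1 (0.05 for narrow peaks), keeping 1 tag per position. The pileup deposited for a peak is a signal of tag coverage without depth scaling. Fold enrichment, as deposited, is its ratio to local background, and the deposited p-values and q-values are given as -log10. The gapped list marks the narrow peaks inside broad peaks.

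From these files, pileup and fold were ranked within each library. The members and gene lists were chosen with earlier results of these data known. Gene spans were those of RefSeq on GRCm38, the assembly of mm10, with strands from GENCODE by symbol, which gave a TSS (the outermost start) for 89.9% of 21883 protein-coding genes. CpG content and alignability (bwa 0.7.19, chromosome 18 alone, windows every 10 bp) used GRCm39 starts and no mm10 coordinates. Overlaps needed at least 1 bp. No pair of libraries shared a peak of identical ends and pileup (0 at most). Regions were tested with limma 3.58.1 in R 4.3.3 (lmFit and eBayes, two-sided, Benjamini-Hochberg) with genotype alone, after the step was tested on simulated data. Other steps used Python 3.11.15, numpy 2.4.6, pandas 2.3.3, scipy 1.17.1 and matplotlib 3.10.9. Counts and sums over members were given no test.

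Named were all members with a peak, the values of those called in at least 5 libraries and of the C-type members, up to 6 other regions per cluster called in all 7 libraries, the region with the lowest limma p per cluster and direction, the neighbouring genes, and examples from the lists of non-clustered protocadherins, Ugt1a genes, regulators, partners and cell type markers. Some listed genes, and 1 marker list that rests on them, are not reported here. Alternatives were a -log10 q of at least 5, peaks that hold a narrow peak, the same number of peaks per library, TSS windows of 250 bp and 2.5 kb, other assignments of peaks, fold in place of pileup, other limma settings, a replicate block and leaving out each library. Replicate numbers in the titles were not taken to pair the samples. Deviations from the group means correlated at -0.22, 0.098 and -0.24 between libraries of the same number. With group means of so few libraries, these values cannot decide whether samples were paired. The count of accessible first exons per library was added after seeing the data. Sequences served only for CpG content and alignability and are not shown.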

Additional observations from a re-analysis of the deposited data

Results flagged for a closer look

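Among 27 measures tested for an extreme library within the 4 Nedd4L-cKO libraries, 1 stood out. The number of peaks in Pcdhb was 5, 5, 5 and 7, so that the gap of replicate 4 to the others was the whole range (a ratio of 1). With 3 tied counts that ratio holds for any other value of the fourth library, so it is no sign of an extreme library. Replicate 4 was also the deepest Nedd4L-cKO library, with 20.1 M (mega) tags kept, and the part of depth in this count was not tested.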

How the results depend on the processing

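Of 205 values recomputed under an alternative, 195 were counted as unchanged, 9 as moved and 1 tested shift turned its sign. A difference without a test was unchanged if it moved by no more than the spread between libraries, and a tested shift if it kept its call and sign. Counts of members have no such spread, and the smaller changes in them, given below, were counted as unchanged. In all, the sign turned in 19 of 157 recomputed differences between genotypes, and 18 of these had no test. Leaving out single libraries gave -1.75 to 1.33 accessible first exons, -0.91 to 0.313 kb in Pcdhb, and median percentiles from -3.05 to 14.0 in Pcdha and from -13.3 to 1.57 in Pcdhg. Requiring a -log10 q of at least 5 left 1 member with a peak in all 7 libraries and 53 with none, against 9 and 28, and made the difference in Pcdha -0.58 peaks and -0.41 kb. In Pcdha the difference in peaks was 0.0833 with peaks that hold a narrow peak and -0.25 with the same number of peaks per library, and that in covered length was then -0.0816 kb. The difference in the median percentile of Pcdhb was -7.59 with peaks that hold a narrow peak. Leaving out libraries gave 0 to 1 separating regions in the clusters, the 1 being Pcdhb21 without WT replicate 2, and turned the shift of the region from 37177979 from 0.23 to -0.11 without WT replicate 3, the range being -0.11 to 0.57. In these cases the cause was not tested. The TSS window and the way peaks were assigned left the counts of 9 and 28 as they were. The counts were 6 and 32 with peaks that hold a narrow peak, where no Pcdhb exon was called in all 7 libraries. With the same number of peaks per library they were 8 and 29, and leaving out single libraries gave 9 to 10 and 28 to 29. The replicate block is a paired fit on numbers that are not known to pair the samples. With it, limma called 0 regions in the clusters and the difference was -1 accessible first exon, -1.33 peaks in Pcdhb and 0.333 in Pcdhg. No alternative of limma called a region in the clusters, and 5 of the 12 gave 1 region with an unadjusted p under 0.05. That region was a different one each time, and 2.73% to 3.98% of all tested regions had such a p in these 5 settings. The part of depth in the calls at variable exons was not tested.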
